A study of Homo sapiens with 16 samples.

Results

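Amino acid transporters carry amino acids across the plasma membrane, and cytosolic aminoacyl-tRNA synthetases load them onto transfer RNA for translation. A list of 38 genes was examined, made up of 16 transporters, the 2 amino acid enzymes ASNS and ASS1, and 20 subunits of cytosolic synthetases. Membership required a protein-coding gene with an FPKM of 1 or more in at least 2 libraries. FPKM is the number of fragments per kilobase of gene, scaled to the size of the library. Levels of different genes can be set side by side on it, but they depend on the gene length used. The requirement left 37 of the 38 listed genes, out of 58735 genes in each table, namely 15 transporters, 2 enzymes and 20 synthetase subunits. The transporter SLC7A8 did not reach the level, with at most 0.875 FPKM in any library.

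The libraries came from human lung cancer cell lines, labelled as wild type in genotype and as epithelium. NCI-H1975, a lung adenocarcinoma line with a mutant EGF receptor, gave 3 groups of 4 libraries: control cells, cells given magnolin, and cells given the chloroform fraction of Flos Magnoliae. Flos Magnoliae is the dried flower bud of magnolia used in Chinese medicine, and magnolin is a lignan found in it. Parental HCC827 cells, another lung adenocarcinoma line with a mutant EGF receptor, gave 2 libraries. The labels give no dose and no time of treatment, do not say whether controls had a vehicle, and they do not say whether replicates came from separate cultures, so the p-values reflect the spread between libraries alone, which may be technical. The stated aim of the series was to follow gene changes after resistance to EGF receptor inhibitors and to look for inhibitors of resistance genes.

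NCI-H1975 replicates 1 and 2 of each group were deposited in one table (set A) and replicates 3 and 4 in another (set B), and HCC827 in a table of its own. Each table had its own normalization, and tests therefore stayed within a set or held a term for the replicate number. Libraries held 15863416 to 21312671 reads assigned to genes. Libraries numbered 1 stood apart from the rest of set A, with a mean correlation to the other libraries of their group of 0.898 to 0.921, a feature that is described with the set A values. In set B, transcripts of the mitochondrial genome made up 5.84 and 5.83% of reads in controls, 6.40 and 6.38% with magnolin, and 8.17 and 7.04% with the fraction. The summed FPKM of 6 epithelial markers was 589 and 580 in those controls, 424 and 417 with magnolin, and 385 and 409 with the fraction. The part of these shifts in the results below was not tested. All 6 epithelial markers were detected in every library. Of the markers of other cell types, CD3E and HBB were at 0 in all 14 libraries and PTPRC reached at most 0.0126 FPKM. The summed level of 3 fibroblast markers was 1.39 to 3.12 FPKM over all libraries. The sum of the 2 endothelial markers PECAM1 and CDH5 was 6.21 and 4.27 FPKM in set B controls, 1.69 and 1.47 with magnolin, and 0.884 and 0.814 with the fraction, and its part in the results was likewise not tested. The 3 lung lineage markers summed to 1.76 to 9.21 FPKM in NCI-H1975 and to 107 and 116 in HCC827.

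When amino acids run short, uncharged transfer RNA activates the kinase GCN2, which phosphorylates the initiation factor eIF2. Other kinases phosphorylate the same factor under other kinds of stress, and the response as a whole raises the transcription factor ATF4. ATF4 pairs with members of the C/EBP family on a composite DNA element and is known to switch on transporters, asparagine synthetase and many cytosolic synthetases. Several transporters work as pairs: the light chains SLC7A5 (LAT1) and SLC7A11 (xCT) each bind the heavy chain SLC3A2 (CD98), which brings them to the cell surface.

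Promoters of the genes were searched for the core of that composite element, because the list contains several textbook targets of ATF4. The core was taken as TGATGNAA and was looked for on both strands, with overlapping matches allowed, in windows of 300 bases (250 before and 50 after each start site) of RefSeq promoters on GRCh38.p14. It was present in 3.62% of the 35116 windows and in 4.46% of the 27305 genes of that table. Of the 38 listed genes 32 had an entry, with 52 windows, of which 14 (26.9%) held the core. SLC7A11, SLC7A2, DARS, LARS, VARS and YARS had no entry. The lines below show 30 bases around the core (24 for SLC3A2, where the window ends), with the core in capitals and every sequence written so that the core reads forward. They were chosen to show the element in genes of each class that rose with the fraction in set B, and in SLC1A3 and NARS, which did not pass the test there.
SLC3A2: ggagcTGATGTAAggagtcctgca
SLC1A4: ccggctggagaTGATGCAAacgggagccgc
SLC1A3: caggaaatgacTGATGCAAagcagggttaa
ASNS: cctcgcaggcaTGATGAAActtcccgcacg
AARS: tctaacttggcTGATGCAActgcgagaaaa
GARS: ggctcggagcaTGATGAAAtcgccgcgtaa
IARS: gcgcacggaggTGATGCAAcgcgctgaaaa
MARS: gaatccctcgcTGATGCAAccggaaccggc
NARS: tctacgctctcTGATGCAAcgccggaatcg

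These stretches lie at chr11:62881725-62881748 (minus strand) for SLC3A2, chr2:64989381-64989410 (minus) for SLC1A4, chr5:36596357-36596386 (plus) for SLC1A3 and chr7:97872458-97872487 (minus) for ASNS. The synthetase stretches lie at chr16:70289675-70289704 (plus) for AARS, chr7:30594834-30594863 (minus) for GARS, chr9:92293692-92293721 (plus) for IARS, chr12:57488053-57488082 (minus) for MARS and chr18:57621804-57621833 (minus) for NARS. In ASNS the core began 68 bases before the start site, on the strand of the gene. In AARS, GARS, IARS and MARS the core lay on the opposite strand. Its end farthest upstream, in the direction of the gene, was 187, 33, 13 and 4 bases before the start site. In MARS the core, 8 bases long, thus ran across the start site. In SLC3A2 and NARS that end lay after the start site, at bases 38 and 15 counted from it. SLC3A2 and SLC1A3 each had 3 windows, of which 1 held the core. The middle base, which the search left free, was A in ASNS and GARS, T in SLC3A2 and C in the other lines. Cores were also found in SLC7A1, SLC1A5, SLC38A1, CARS and TARS. SLC7A5 held none in its window, and neither did SLC6A9, SLC43A1, ASS1, SARS or WARS.

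With the chloroform fraction in set B, 21 of the 36 genes tested were higher than in controls and 1 was lower, where 8.33% of all 14673 genes tested were called higher and 11.6% lower (limma on log2 of FPKM plus 1, adjusted p under 0.05). The members were chosen with earlier results of these data known, so their counts beside such shares, here and below, are a description. SLC7A8 and SLC1A1 were not tested in set B because of their low level. Of 14 transporters 9 rose and none fell, ASS1 rose, and of 20 synthetase subunits 10 rose, 1 fell and 9 did not pass. Of the genes tested in set B, ASNS reached the minimum of 1 FPKM in the fraction libraries alone and SLC1A3 in the controls alone, so the minimum set the direction of each. Their values are a description, and without them 20 of 34 genes were higher and 1 lower, with a median of 0.60 for the 13 other transporters. In bulk RNA, a change in the number of cells that express a gene and a change in its level per cell cannot be told apart. The median log2 change was 0.60 for the transporters and 0.42 for the synthetases, against -0.01 for all genes tested. The 4 transporters of largest change were SLC7A11, SLC7A5, SLC1A4 and SLC3A2, and the largest changes among synthetases were those of AARS and GARS.

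On hg38, the build named in the submitters' processing notes, SLC7A11 lies on chromosome 4 from 138164097 to 138242349, SLC7A5 on chromosome 16 from 87830023 to 87869488, and SLC3A2 on chromosome 11 from 62856102 to 62888875. SLC7A11, the light chain of the cystine importer, was at 2.94 and 3.61 FPKM in controls and at 17.9 and 15.2 with the fraction. The log2 change of 2.04 (SE 0.13, adjusted p = 0.000691 by limma) was the largest of all members on FPKM plus 1, from a low starting level. The added 1 shrinks changes more in members at still lower levels, such as ASNS. The other light chain, SLC7A5, which imports leucine and other large neutral amino acids, was at 108 and 122 FPKM in controls and at 388 and 438 with the fraction (log2 change 1.83, SE 0.09, adjusted p = 0.000404 by limma). Their shared heavy chain SLC3A2 was at 37.2 and 40.5 FPKM in controls and at 88.8 and 114 with the fraction (log2 change 1.35, SE 0.12, adjusted p = 0.00206 by limma). For all 3 parts of these pairs, both fraction libraries lay above both controls, as in 29.2% of all genes tested, and above both magnolin libraries, as in 26.8%. The ratio of SLC7A5 to SLC3A2 in FPKM was 2.91 and 3.02 in controls and 4.37 and 3.84 with the fraction. With magnolin it was 3.93 and 3.90, between the values of the fraction libraries.

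SLC1A4, an exchanger of alanine, serine and cysteine, was at 4.28 and 4.64 FPKM in controls and at 14.5 and 14.4 with the fraction (log2 change 1.498, adjusted p = 0.000691 by limma). Its relative SLC1A5, the main glutamine exchanger, was already at 60.4 and 57.6 FPKM and was at 82.1 and 94.9 with the fraction (log2 change 0.57, adjusted p = 0.00932 by limma). SLC1A5 shares 23.8% of its exonic bases with other genes on the opposite strand. Both rose, SLC1A4 with the larger log2 change. The glycine transporter SLC6A9 was at 11.9 and 9.40 FPKM in controls and 18.4 and 20.1 with the fraction (log2 change 0.80, adjusted p = 0.00804 by limma). SLC43A1, a carrier of large neutral amino acids, was at 4.499 and 4.60 FPKM in controls and 7.98 and 8.09 with the fraction (log2 change 0.70, adjusted p = 0.00348 by limma). Replicates of both were close beside the difference between groups. The arginine and lysine importer SLC7A1 (log2 change 0.60, adjusted p = 0.00403 by limma) and the glutamine importer SLC38A1 (0.59, adjusted p = 0.00708) made up the rest of the transporters that rose. With 1 control library left out, the call of SLC1A5 was lost (adjusted p = 0.0563 without control 3 and 0.0814 without control 4), as was that of SLC38A1 without control 3 (0.0613).

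**Figure D1:**
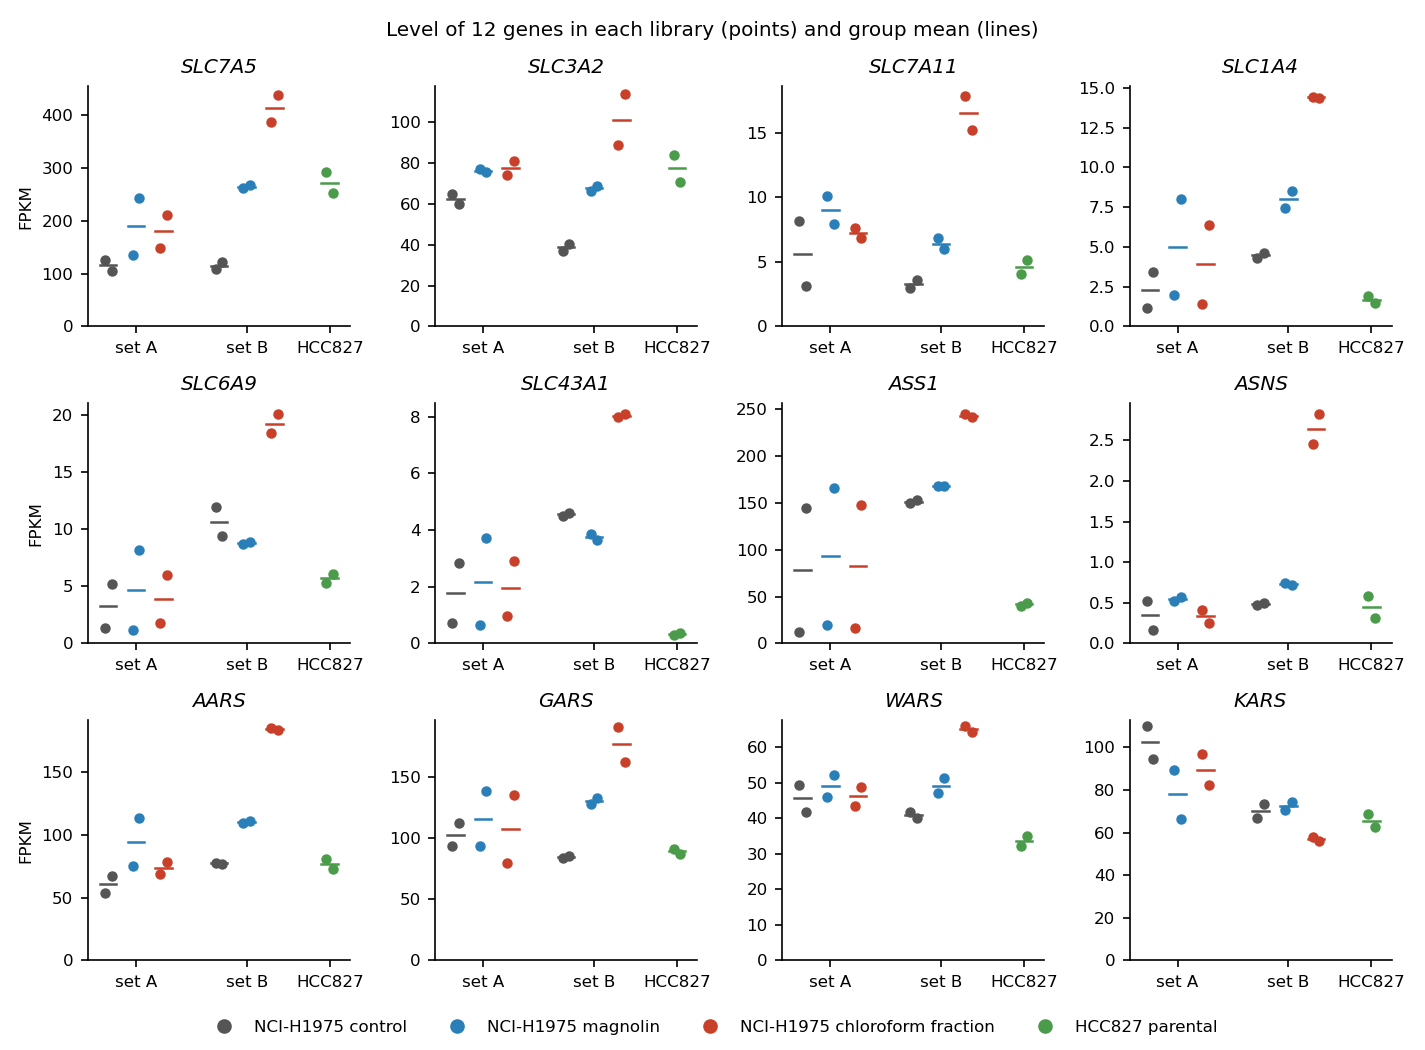
Level in FPKM (vertical axes, each from 0) of 12 genes in each NCI-H1975 library of set A (replicates 1 and 2) and set B (replicates 3 and 4) and in parental HCC827; points are libraries and short lines are means of 2 libraries. In set B the fraction libraries of SLC7A5 (388 and 438) lie above all others, while KARS is lowest there (58.1 and 55.9), and in set A the 2 libraries of a group differ widely for ASS1, SLC1A4, SLC6A9 and SLC43A1.

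Asparagine synthetase, ASNS, had few reads, 16 to 208 per library. It was at 0.478 and 0.494 FPKM in controls and at 2.45 and 2.83 with the fraction in set B (log2 change 1.29, SE 0.17). It entered the test through the group where it was high, so these values are a description. The 1 added to each FPKM shrinks a change at this level. The level of ASNS is uncertain, because 44.6% of its exonic bases are shared with AC079781.5, an annotated transcript on the same strand, and reads there can be split between the genes or left out. That transcript was at 0.831 and 1.12 FPKM in controls and at 2.29 and 2.78 with the fraction, so both entries were higher. ASS1, argininosuccinate synthetase of arginine synthesis, had the highest FPKM of the members in set B controls, at 149 and 153. It was at 245 and 241 FPKM with the fraction (log2 change 0.68, SE 0.06, adjusted p = 0.00178 by limma).

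The 5 transporters tested that did not pass were SLC1A3, SLC7A2, SLC7A6, SLC38A2 and SLC36A4, and they are named after their values were seen. Their log2 changes ran from -0.57 to -0.21. SLC1A3, at 1.22 and 1.13 FPKM in controls, was tested through its control libraries alone. In each of the other 4 both fraction libraries lay below both controls, a pattern that 32.7% of all genes tested also showed. SLC7A6 shares 55.6% of its exonic bases with genes on the opposite strand, so its level is uncertain. SLC38A2, a glutamine importer that is often counted among ATF4 targets, was at 129 and 125 FPKM in controls and at 116 and 94.8 with the fraction (log2 change -0.27, adjusted p = 0.116 by limma). Of the 14 log2 changes of transporters in set B 9 were 0.57 or more and 5, that of SLC1A3 among them, below 0.

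AARS, the alanyl-tRNA synthetase, was at 77.6 and 76.9 FPKM in controls and at 185 and 184 with the fraction (log2 change 1.25, SE 0.06, adjusted p = 0.000404 by limma). GARS, for glycine, was at 83.9 and 85.1 FPKM in controls and at 191 and 162 with the fraction (log2 change 1.05, SE 0.09, adjusted p = 0.00180 by limma). SARS, for serine, was at 31.2 and 34.4 FPKM in controls and at 62.6 and 57.2 with the fraction (log2 change 0.85, adjusted p = 0.00283 by limma). The synthetases of largest change were thus those for alanine, glycine and serine.

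MARS, for methionine, was at 21.7 and 24.4 FPKM in controls and at 42.1 and 40.1 with the fraction (log2 change 0.81, adjusted p = 0.00251 by limma). It shares 5.05% of its exonic bases with DDIT3 on the opposite strand, which itself had a log2 change of 1.72, and whether reads were counted by strand is not given. IARS, for isoleucine, was at 75.3 and 78.4 FPKM in controls and at 131 and 117 with the fraction (log2 change 0.69, adjusted p = 0.00381 by limma). CARS, for cysteine, was at 8.81 and 9.24 FPKM in controls and at 14.4 and 15.2 with the fraction (log2 change 0.66, adjusted p = 0.00399 by limma). WARS, for tryptophan, was at 41.7 and 40.0 FPKM in controls and at 65.9 and 64.2 with the fraction (log2 change 0.66, adjusted p = 0.00338 by limma). LARS, YARS and TARS, for leucine, tyrosine and threonine, had log2 changes of 0.57, 0.54 and 0.44. The call of LARS was lost without control 3 (adjusted p = 0.0902) or control 4 (0.0609), and that of YARS without control 3 (0.0522). TARS passed at an adjusted p of 0.0262 by limma and not with the replicate number as a block (adjusted p = 0.0519), nor without any one of the control or magnolin libraries (0.0595 to 0.147).

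KARS, for lysine, was the member that fell, from 66.7 and 73.6 FPKM in controls to 58.1 and 55.9 with the fraction (log2 change -0.29, SE 0.08, adjusted p = 0.0461 by limma). The call was lost with the replicate block (adjusted p = 0.0752) and with median-ratio rescaling (adjusted p = 0.0597), and when any single library other than fraction 3 was left out (adjusted p = 0.0797 to 0.265). EPRS (log2 change 0.40, adjusted p = 0.0552) and NARS (0.37, adjusted p = 0.0573) came closest to the threshold among the synthetases that did not pass. The other 7, for aspartate, phenylalanine (2 subunits), histidine, glutamine, arginine and valine, had log2 changes between -0.24 and 0.02.

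DARS, EPRS, IARS, KARS, LARS, MARS, QARS and RARS belong to the multisynthetase complex, in which synthetases are bound together, a grouping made after the values were seen. Of these 8 in the complex, 3 rose, 1 fell and 4 did not pass, with a median log2 change of 0.21. Of the 12 outside it 7 rose and 5 did not pass, with a median of 0.49. Of all genes tested 8.33% were called higher and 11.6% lower. None of the 3 scaffold proteins of the complex passed (median 0.02, no gene at an unadjusted p under 0.05).

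**Figure D2:**
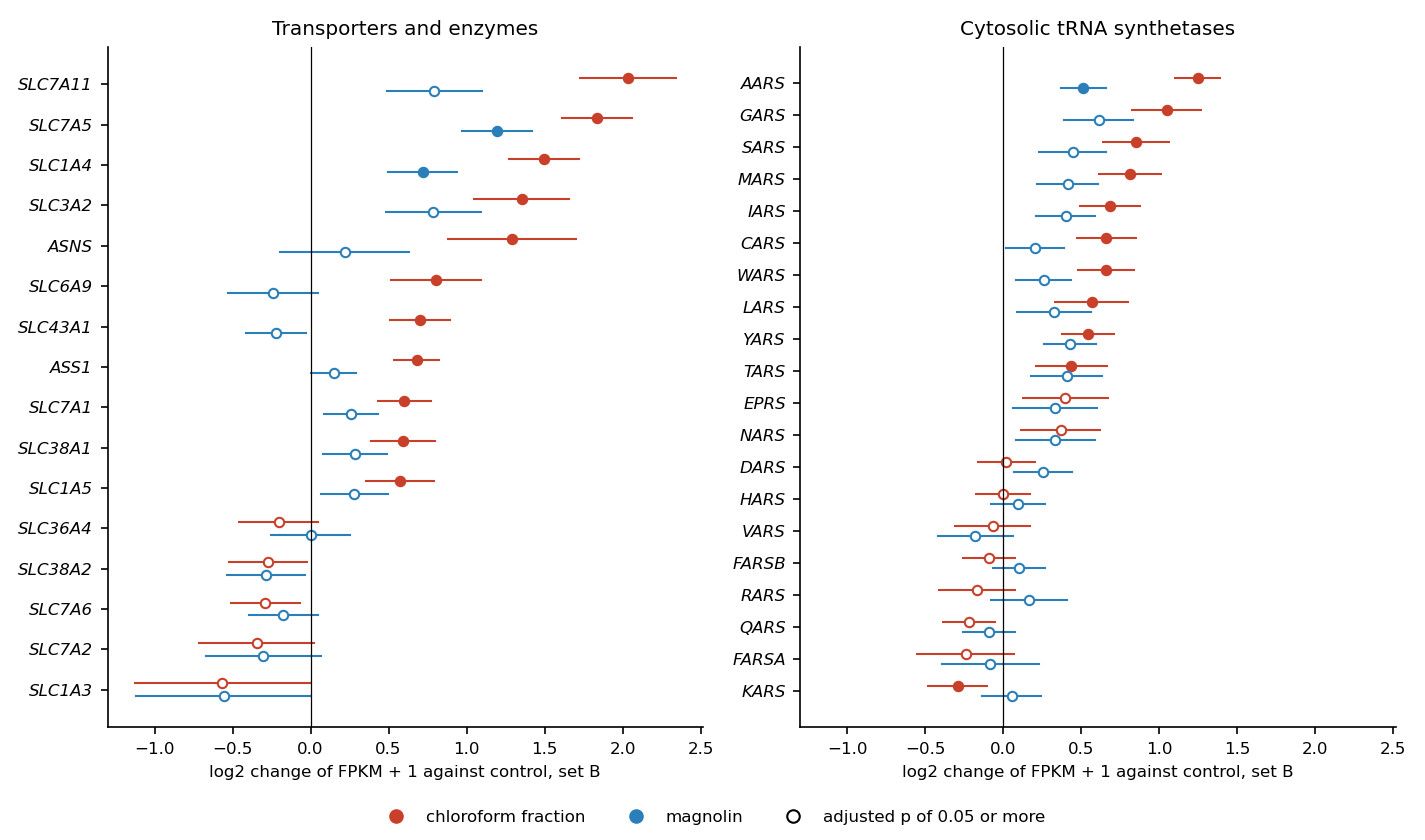
Log2 change of FPKM plus 1 against control in set B (horizontal axis) for each tested member, with 95% confidence intervals, for the chloroform fraction (red) and magnolin (blue), 2 libraries per group; filled points have an adjusted p under 0.05 by limma. Changes with the fraction run from -0.57 (SLC1A3) to 2.04 (SLC7A11), and 3 points are filled for magnolin, SLC7A5, SLC1A4 and AARS.

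Among the members with a promoter entry, 12 of the 14 with the core in any of their windows rose with the fraction in set B, with a median log2 change of 0.67. Of 16 tested members without it 6 rose and 1 fell, with a median of -0.05. Over all genes tested 8.33% were called higher and 11.6% lower. The difference in medians lay in the synthetases: 6 of 7 with the core rose (median 0.69), and 2 of 9 without it rose and 1 fell (median -0.09). Among transporters and enzymes 6 of 7 with the core rose (median 0.60), and so did 4 of 7 without it (median 0.68). The 7 include ASNS and SLC1A3. Without these, 11 of 12 members with the core rose, among them all 5 transporters and enzymes. No test was made of this, since the list holds known ATF4 targets, and a match is only a run of letters. SLC7A5 rose with no core in the window that was searched.

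**Figure D3:**
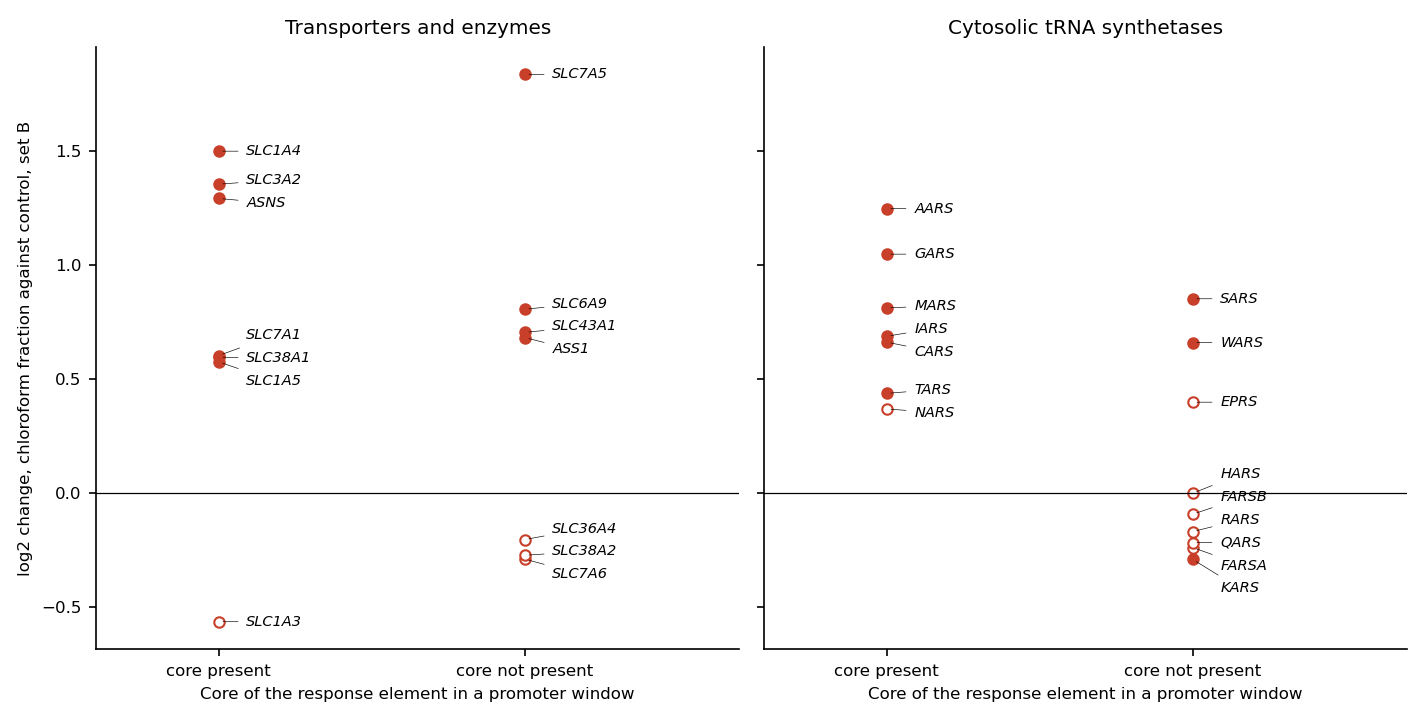
Log2 change with the chloroform fraction against control in set B (vertical axis) for members with and without the core of the composite element in a promoter window; each point is 1 gene, filled where its adjusted p was under 0.05 by limma. All 7 synthetases with the core lie between 0.37 and 1.25, and those without it lie between -0.29 and 0.85.

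Other genes of the pathway were read from further lists in the same comparison, where 8.33% of all genes tested were called higher and 11.6% lower. Of 16 tested synthetases from a list of mitochondrial ones, which charge transfer RNA inside mitochondria, none rose. In that list 1 fell, FARS2 (log2 change -0.35, adjusted p = 0.0358 by limma), and the median was -0.07. GARS and KARS were counted as cytosolic and were not on that list, so their changes do not enter its count. Of 7 further amino acid carriers tested out of 16 listed, none rose and 1 fell, SLC43A2 (log2 change -0.65, adjusted p = 0.0321 by limma). Of 14 stress response regulators 10 rose, with a median of 1.30, among them ATF4 (0.88), CEBPG (1.49), DDIT3 (1.72), TRIB3 (1.63) and CHAC1 (2.60). The other 4 were not called, and 12 of the 14 had a change above 0, the lowest being -0.18. Of 15 genes of amino acid synthesis 7 rose, with a median of 0.43, among them the serine enzymes PHGDH (2.07) and PSAT1 (1.57). No test of a difference between these lists was made, and the lists were chosen with earlier results of these data known.

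With magnolin in set B, 3 of 36 members were higher than in controls and none was lower, where 0.252% of all genes tested were called higher and 0.375% lower. SLC7A5 was at 261 and 268 FPKM against 108 and 122 in controls (log2 change 1.198, SE 0.09, adjusted p = 0.0182 by limma). SLC1A4 was at 7.45 and 8.55 against 4.28 and 4.64 FPKM (log2 change 0.72, SE 0.09, adjusted p = 0.0393 by limma). AARS was at 110 and 111 against 77.6 and 76.9 FPKM (log2 change 0.51, SE 0.06, adjusted p = 0.0297 by limma).

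SLC7A11 (6.82 and 5.97 FPKM with magnolin, log2 change 0.79) and SLC3A2 (66.5 and 68.8 FPKM, log2 change 0.79) had larger changes than SLC1A4 but did not pass, both with an adjusted p of 0.0669 by limma. SLC1A3 was at 0.611 and 0.357 FPKM (log2 change -0.56) and SLC7A2 at 1.83 and 1.88 (-0.30). SLC38A1 was at 32.5 and 33.2 FPKM (0.29) and SLC38A2 at 103 and 105 (-0.28). None of these 4 passed. ASNS was at 0.740 and 0.719 FPKM (log2 change 0.22, adjusted p = 0.622 by limma), ASS1 at 168 and 167 FPKM (0.15, adjusted p = 0.343) and WARS at 47.1 and 51.2 FPKM (0.26, adjusted p = 0.207). Among synthetases GARS, at 127 and 132 FPKM, had the largest change of all (0.61, adjusted p = 0.0603 by limma). SARS (43.1 and 46.7 FPKM), YARS (27.2 and 27.9), MARS (30.8 and 31.1) and TARS (104 and 108) followed AARS, with log2 changes of 0.44, 0.43, 0.41 and 0.41, none past the threshold.

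The median change with magnolin was 0.13 for 14 transporters (0.26 without SLC1A3, which was tested through its controls) and 0.29 for 20 synthetases, against 0.01 for all genes tested. In 16 of the 20 synthetases both magnolin libraries lay above both controls, a pattern shown by 28.4% of all genes tested, although 1 of the 20 was called. The number called was unstable: it was 1 (SLC7A5, adjusted p = 0.0377) with the replicate block and 0 when any single control or magnolin library was left out. It was 13, of which 11 were higher and 2 lower, when limma voom was run on rebuilt reads. Of all 14673 genes tested, that method called 161 higher (1.1%) and 416 lower.

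Set directly against magnolin in set B, the fraction gave 15 members higher and 1 lower, where 5.55% of all genes tested were called higher and 9.36% lower. With median-ratio rescaling the call of KARS was lost (adjusted p = 0.0544), and over all genes the split moved from 814 higher and 1374 lower to 1001 higher and 976 lower. Of 14 transporters 7 were higher, as were ASS1 and 6 of 20 synthetases, and ASNS, which was tested through the fraction libraries alone, made up the rest (14 of 34 members were higher without ASNS and SLC1A3). The magnolin and fraction libraries are those set against the same controls above, so the comparisons share libraries.

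On log2 of FPKM plus 1, SLC7A11 differed most, at 17.9 and 15.2 FPKM with the fraction and 6.82 and 5.97 with magnolin (log2 difference 1.24, SE 0.13, adjusted p = 0.00482 by limma). The added 1 shrinks the difference of ASNS, at a lower level, more. ASNS, tested through the fraction libraries alone, was at 2.45 and 2.83 against 0.740 and 0.719 FPKM. Its log2 difference of 1.07 is a description. SLC6A9 was at 18.4 and 20.1 FPKM with the fraction and 8.71 and 8.91 with magnolin (1.05, adjusted p = 0.00685 by limma). SLC43A1 was at 7.98 and 8.09 FPKM with the fraction and 3.85 and 3.66 with magnolin (0.93, adjusted p = 0.00316 by limma). SLC6A9 and SLC43A1 had log2 values of -0.24 and -0.22 with magnolin against control, which did not pass. SLC1A4 (0.78), SLC7A5 (0.64), SLC3A2 (0.57), ASS1 (0.53) and SLC7A1 (0.34) were the other transporters and enzymes that were higher. The synthetases higher with the fraction were AARS (0.73), CARS (0.46), GARS (0.43), SARS (0.41), WARS (0.40) and MARS (0.40).

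KARS was lower with the fraction than with magnolin, at 58.1 and 55.9 against 70.8 and 74.6 FPKM (log2 difference -0.34, adjusted p = 0.0364 by limma). TARS, EPRS and NARS were within 0.07 of 0 on the log2 scale in this comparison, with standard errors of 0.09 to 0.11. The count of 16 became 11 with the replicate block, where SLC7A1, GARS, MARS, SARS and KARS had adjusted p-values of 0.0559 to 0.0639. It was 3 without magnolin library 3 and 4 without magnolin library 4. Without control library 3, or without control library 4, it was 8. SLC7A11, SLC43A1 and AARS passed with every set B library left out in turn. The labels give no dose for either treatment, so sizes cannot be set at matched amounts.

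In set A no member passed in either comparison, and neither did any of the 13103 genes tested (0%), of which 107 for the fraction and 255 for magnolin had an unadjusted p under 0.05. Limma voom called none either, and no member reached an unadjusted p under 0.05. With the replicate number as a block no member was called, while limma called 12 genes higher and 12 lower for the fraction (0.183% of those tested) and 63 and 67 for magnolin (0.992%). With that block 2 members for the fraction and 5 for magnolin had an unadjusted p under 0.05. SLC7A5 was at 126 and 106 FPKM in controls, at 136 and 244 with magnolin and at 149 and 212 with the fraction. The log2 change was 0.66 (SE 0.36) with magnolin and 0.62 (SE 0.36) with the fraction. The set A fits quoted here held no block, so their standard errors contain the difference between numbers 1 and 2. With the block the SE of SLC7A5 with magnolin was 0.26 (adjusted p = 0.244 by limma). SLC3A2 was at 65.0 and 60.0 FPKM in controls, at 77.0 and 75.9 with magnolin and at 74.4 and 81.1 with the fraction (log2 changes 0.29 and 0.31, SE 0.22). Treated libraries lay above both controls for SLC7A5, SLC3A2, AARS and MARS with either treatment, genes that were picked out after their values were seen. These were 4 of the 34 members tested, with each treatment. This order was seen in 7.92% of all genes tested for the fraction and in 12.7% for magnolin. With magnolin 5 of the 34 members had both treated libraries below both controls, as had 1779 of the 13103 genes tested. With the fraction 0 of the 34 members had this opposite order, beside 1037 of all genes tested.

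SLC7A11 was at 8.18 and 3.09 FPKM in set A controls, at 10.1 and 7.93 with magnolin and at 7.65 and 6.87 with the fraction, so 1 control lay above both fraction libraries and the other below all treated libraries. SLC1A4 was at 1.18 and 3.41 FPKM in controls, at 1.998 and 8.002 with magnolin and at 1.44 and 6.38 with the fraction. The difference between numbers 1 and 2 was there larger than that between groups. GARS was at 93.5 and 112 FPKM in controls, at 93.0 and 138 with magnolin and at 79.7 and 135 with the fraction (log2 change 0.02 with the fraction, SE 0.35). WARS was at 49.4 and 41.6 FPKM in controls, at 46.0 and 52.2 with magnolin and at 43.5 and 48.8 with the fraction. ASNS was not tested in set A because it stayed below the level needed, at 0.168 to 0.575 FPKM.

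AARS had the largest log2 change among synthetases in set A, 0.61 (SE 0.29) with magnolin and 0.29 (SE 0.29) with the fraction, at 53.8 and 67.4 FPKM in controls, 75.6 and 114 with magnolin and 69.0 and 78.8 with the fraction. MARS was at 20.04 and 21.7 FPKM in controls, at 24.2 and 31.0 with magnolin and at 23.1 and 25.5 with the fraction. KARS was at 110 and 94.6 FPKM in controls, at 89.3 and 66.6 with magnolin and at 96.9 and 82.3 with the fraction. KARS thus had values below 0 with both treatments in set A (log2 changes -0.40 and -0.19), neither past the threshold. FARSB, the other phenylalanine subunit, was at 39.5 and 36.0 FPKM in controls and at 30.7 and 29.5 with magnolin. DARS was at 37.6 and 30.1 FPKM in controls, 32.6 and 24.4 with magnolin and 28.7 and 30.5 with the fraction. HARS was highest in a library numbered 1, at 17.1 FPKM with the fraction, beside 11.5 in fraction 2. None of these synthetases passed the test in set A. Among transporters SLC38A2 was at 102 and 131 FPKM in controls, at 74.1 and 121 with magnolin and at 72.4 and 123 with the fraction. The amino acid carrier SLC36A4 was at 3.33 and 4.46 FPKM in controls, at 2.10 and 3.14 with magnolin and at 2.23 and 4.39 with the fraction. Neither passed, and their groups overlapped with the fraction.

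For 18 of the 37 members every library numbered 1 lay below every library numbered 2 in set A, and for 1, HARS, every library numbered 1 lay above, where 24.6 and 24.7% of all genes tested showed these orders. ASS1 differed most widely, at 12.4, 19.3 and 16.2 FPKM in the libraries numbered 1 and at 144, 166 and 148 in those numbered 2. TARS was at 50.1 to 54.7 FPKM against 95.8 to 104, and SLC43A1 at 0.662 to 0.963 against 2.83 to 3.70. In set B ASS1 ran from 149 to 245 FPKM, so its levels there lay near or above those of the libraries numbered 2. What sets the libraries numbered 1 apart was not tested.

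**Figure D4:**
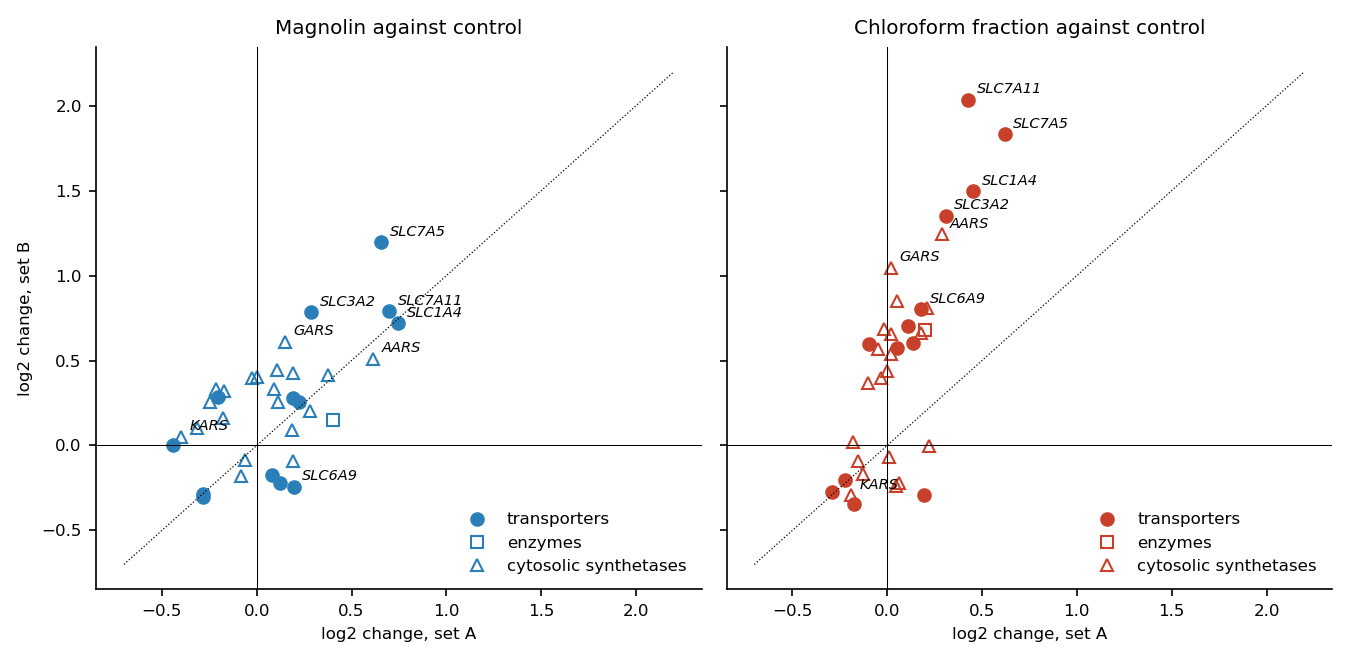
Log2 change against control in set A (horizontal axis) and in set B (vertical axis) for members tested in both, for magnolin (left) and the chloroform fraction (right); the dotted line marks equal changes and each point is 1 gene. With the fraction SLC7A11 lies at 0.43 in set A and 2.04 in set B, and SLC7A5 at 0.62 and 1.83, while with magnolin SLC1A4 lies at 0.75 and 0.72.

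Over both sets with the replicate number as a block, no member passed with the fraction, where 0.156% of all 15428 genes tested were called, although 19 of 36 had an unadjusted p under 0.05. SLC7A5 had a log2 change of 1.23 (SE 0.24, adjusted p = 0.0760 by limma), SLC7A11 one of 1.23 (adjusted p = 0.144), SLC1A4 one of 0.98 (adjusted p = 0.102) and SLC3A2 one of 0.83 (adjusted p = 0.102). AARS, at 0.77, had the largest value among synthetases (adjusted p = 0.149 by limma). Limma voom on rebuilt reads called 4 members higher, where it called 1% of all genes higher, among them SLC7A5 (adjusted p = 0.0146), SLC3A2 (0.0257) and SLC7A11 (0.0420). Without the 3 libraries numbered 1, a choice made after seeing the data, SLC7A5 was the member called (log2 change 1.55, adjusted p = 0.0331 by limma). With magnolin no member passed over both sets (0% of all genes) and none was called by limma voom, while 9 had an unadjusted p under 0.05. SLC7A5 had a log2 change of 0.93 (SE 0.24, adjusted p = 0.336 by limma).

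The difference of the fraction's effect between the sets was tested directly, and no member passed (limma, lowest adjusted p = 0.0742), although 20 of 36 had an unadjusted p under 0.05, where 0.227% of all genes tested were called. The log2 difference, set B minus set A, was 1.61 (SE 0.33) for SLC7A11, 1.22 (SE 0.32) for SLC7A5, 1.04 (SE 0.18) for SLC3A2 and 0.96 (SE 0.18) for AARS. For magnolin limma called no gene, and 5 of 36 members had an unadjusted p under 0.05; no other tool was run on this difference. The corresponding differences were 0.09 (SE 0.33) for SLC7A11, 0.54 (SE 0.32) for SLC7A5 and -0.10 (SE 0.18) for AARS. The sets thus cannot be said to differ for any member, nor to be alike.

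In set B controls the members of highest FPKM were ASS1, SLC38A2 (129 and 125 FPKM), SLC7A5, FARSA (94.6 and 97.3) and GARS. The first 4 were apart from the next member in both libraries, while GARS, EPRS, TARS, AARS and IARS overlapped with their neighbours in that order. Of the 37 neighbouring pairs among the 38 genes, 12 overlapped. CARS, at 8.81 and 9.24 FPKM, was the lowest synthetase there, and HARS, at 11.7 and 11.5, the next. The length used was that of all annotated exons of a gene, 10037 bases for CARS, 7853 for HARS and 3369 for FARSB. In control 3 these genes had 1536, 1598 and 1618 reads, while FARSB was at 27.7 FPKM. The order thus rests in part on that length. Transporters covered the wider range, from SLC38A2 and SLC7A5 above 100 FPKM to SLC1A1, which had no read in any of the 12 NCI-H1975 libraries (3 reads would give 0.0352 to 0.0470 FPKM).

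Parental HCC827 is set beside the 4 NCI-H1975 controls as a description, since the tables were normalized separately. Both HCC827 libraries lay above all 4 controls for 6 of 15 transporters and 2 of 20 synthetases, and below all of them for 4 transporters and 12 synthetases, where 24.5% of all genes lay above and 31% below. The rule that chose the members set the direction of SLC1A1, which reached 1 FPKM in HCC827 alone, and of SLC1A3, which reached it in NCI-H1975 controls alone. Of the other 13 transporters 5 lay above and 3 below. SLC7A5 was at 292 and 252 FPKM in HCC827 against 106 to 126 in the controls, beside 261 and 268 in NCI-H1975 with magnolin in set B. SLC3A2 was at 84.0 and 70.9 FPKM against 37.2 to 65.0, and SLC7A1 at 24.9 and 24.4 against 7.12 to 11.2. The cystine importer SLC7A11, at 4.05 and 5.16 FPKM, lay within the range of the controls.

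SLC1A1, a glutamate and cysteine transporter, was at 3.26 and 3.39 FPKM in HCC827 and was the member seen in that line alone among these libraries. SLC1A3, a glutamate transporter, was the reverse, with no read in HCC827 (3 reads would give 0.0292 to 0.0302 FPKM) and up to 1.22 FPKM in the controls. SLC43A1 was at 0.309 and 0.376 FPKM in HCC827 against 0.722 to 4.60, and SLC38A2 at 49.0 and 52.4 against 102 to 131. Among synthetases MARS and SARS lay above the controls, with SARS at 53.5 and 50.3 FPKM against 31.2 to 39.2. FARSA, a subunit of the phenylalanine enzyme, was at 39.7 and 33.8 FPKM against 68.8 to 106. AARS and GARS, the synthetases of largest change with the fraction in set B, overlapped between the lines.

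**Figure D5:**
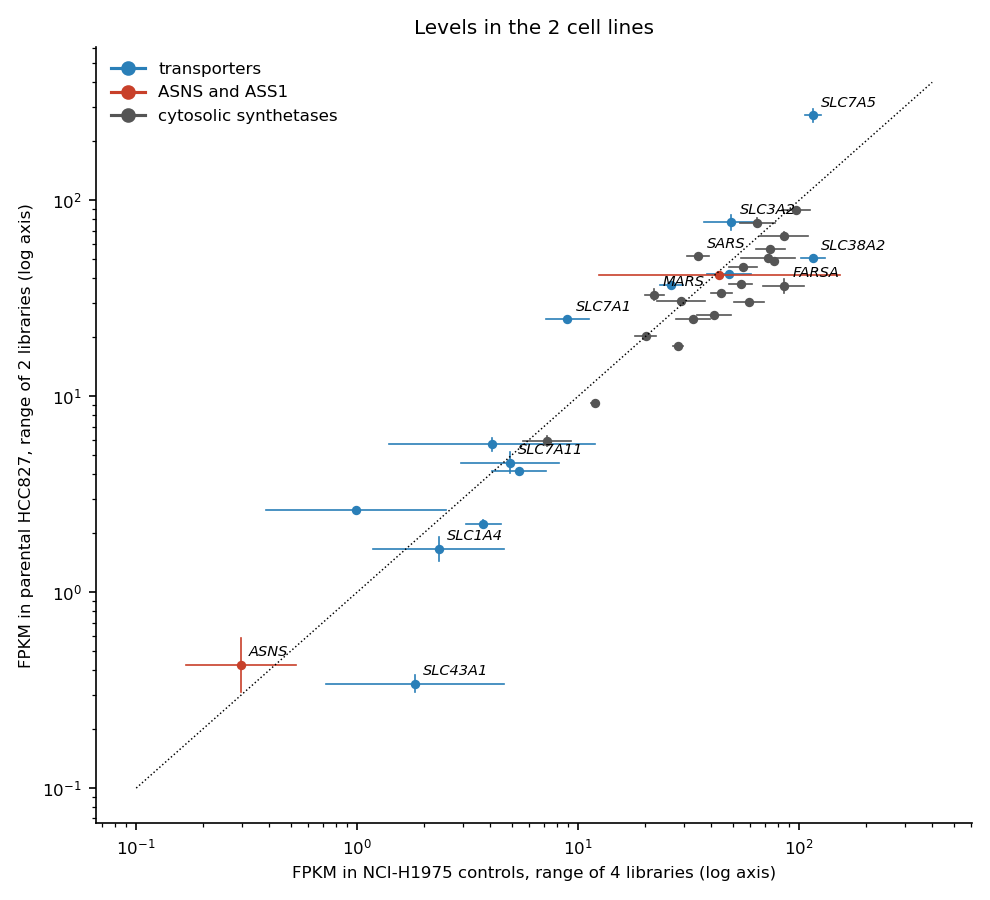
FPKM of members in the 4 NCI-H1975 controls (horizontal log axis) and in 2 parental HCC827 libraries (vertical log axis); bars are ranges over libraries, points are the geometric middle of each range, the dotted line marks equal levels, and members at 0 in a line are not drawn. SLC7A5, SLC3A2 and SLC7A1 lie above the line, and SLC43A1, SLC38A2 and FARSA below it.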

How the data were processed

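The authors deposited FPKM per gene for each library, in 3 tables that were normalized separately. Per the labels' protocols, RNA quality was assessed on a bioanalyzer and libraries were built with a common or a strand-specific method. For the aligner, the counter and the strandedness nothing is given in the sources used here; hg38 is named in the submitters' processing notes. The gene coordinates of all 58735 identifiers were those of GENCODE 29. FPKM times gene length gave whole reads in 100% of values up to 2000 reads (tolerance 0.05 reads), and library sizes were rebuilt from these. Libraries of a group differed by more than sampling noise (chi-square per gene of 3.73 or more). Of the HCC827 columns, 2 match no label and were set aside, and resistant HCC827 was not analysed here.

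Values were tested as log2 of FPKM plus 1 with limma 3.58.1 (R 4.3.3, mean trend), for genes at 1 FPKM or more in at least 2 libraries of the fit. P-values were adjusted by Benjamini-Hochberg over all genes tested, at a threshold of 0.05. Fits within a set held its 3 groups without a block. Fits over both sets held the replicate number as a block, and the difference between sets was an interaction term. In the fits over both sets the numbers were treated as pairing. Same-numbered libraries there deviated together from their group means (12 pairs, correlation 0.290 to 0.840). The same number was the best match in 9 of the 12, and a difference between the sets enters these correlations. Within set A alone the correlations were 0.704 to 0.743, and within set B alone -0.0265 to 0.0239. The main set A fits thus left out a pairing that these libraries show. The alternatives were a pseudocount of 0.1, no filter, median-ratio rescaling, limma voom on rebuilt reads, the block, only the groups compared and leaving out each library. The script was tested on simulated data.

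Named were SLC7A5, SLC3A2, SLC7A11, ASNS, ASS1 and WARS, all called members, and in each comparison the 8 transporters and enzymes and 6 synthetases of largest change. The members and lists were chosen with earlier results of these data known. Python 3.11.15 was used for overlaps, motifs and figures.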

Additional observations from a re-analysis of the deposited data

Results flagged for a closer look

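Of 108 combinations of a member and an NCI-H1975 group, 18 held a library whose gap to the nearest of the other 3 took up more of the group's range than Dixon's 95% critical value allows. Chance flags about 1 in 20 groups of like libraries, which these groups, each drawn from both sets, are not. Of the 18, 14 were libraries numbered 1, 2 were numbered 2 and 2 were numbered 3 or 4. In control 1, SLC7A11 was high at 8.18 FPKM, and SLC1A5 and ASS1 were low at 38.3 and 12.4 FPKM. In magnolin 1 the low values were 4.25 FPKM for SLC7A6, 1.998 for SLC1A4, 42.5 for SLC1A5, 1.13 for SLC6A9 and 0.662 for SLC43A1. ASS1 was also low there at 19.3 FPKM, as were the synthetases AARS at 75.6, MARS at 24.2, TARS at 52.2 and YARS at 19.7 FPKM. HARS was high in fraction 1 at 17.1 FPKM. ASNS was low in control 2 at 0.168 FPKM, and QARS high in fraction 2 at 46.0 FPKM. In the other set, IARS was low in control 3 at 75.3 FPKM and LARS high in control 4 at 29.8 FPKM. All of these groups span tables that were normalized separately, so a gap can lie between sets as well as within one.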

How the results depend on the processing

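The count of members called with the fraction against control in set B, 22, stayed within 1.5 times under every alternative run (16 to 28). With magnolin against control in set B the count of 3 became 0 without a filter on low values, 13 with limma voom, 5 with only the 2 groups compared, and 0 to 6 when 1 library was left out. For the fraction against magnolin the count of 16 became 9 without a filter, 9 with only the 2 groups compared, and 3 to 17 when 1 library was left out. With the replicate block the counts were 20 for the fraction, 1 for magnolin and 11 between the treatments in set B. In set A the count was 0 under every alternative, the replicate block included. Over both sets the fraction's count of 0 became 4 with limma voom, 1 without the 3 libraries numbered 1 (chosen after seeing the data) and 0 to 2 with 1 library left out. It was 0 with a term for the set and no replicate block, and magnolin's count was 0 throughout. Over all genes, the fraction's calls in set B were 1222 higher and 1696 lower, 636 and 962 without a filter, and 304 and 424 without control 4. In set A 5 genes were followed singly (SLC7A5, SLC3A2, SLC7A11, ASS1 and WARS), none of them called, and the direction of 3 turned when 1 library was left out. The class medians turned too: without fraction 2, that of transporters and enzymes went from 0.16 to -0.32 and that of synthetases from 0.015 to -0.14. For the fraction, the log2 change ran from -0.15 to 1.01 for SLC7A11 (lowest without control 2), from -1.52 to 1.92 for ASS1 (lowest without control 1, and -1.36 without fraction 2), and from -0.099 to 0.14 for WARS (lowest without control 2, and -0.060 without fraction 2). For magnolin it ran from -1.32 to 2.12 for ASS1 (lowest without control 1, and -1.12 without magnolin 2) and from -0.011 to 0.23 for WARS (lowest without control 2). In these fits the groups compared had fewer libraries and no longer held the same replicate numbers. Libraries numbered 1 and 2 differed for many members, as given with the set A values. The cause of these changes was not tested. Where 1 library of a group is left, it is assumed to vary like the others. Resistant HCC827 cells were not analysed here.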
